A study of Homo sapiens
Mus musculus and Homo sapiens with 12 samples.

Results

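The DNA replication and nucleotide supply genes are a list of 37 human genes for replication origins, the replication fork, the making of DNA precursors and entry into S phase, out of 9531 human genes named in the deposited tables. The list was set by gene name, with earlier results of these data known. PolyA RNA was sequenced from heterokaryons on day 1, day 2 and day 3 after fusion (2 libraries a day), from 1 homokaryon sample, from co-cultures (2 libraries) and from unfused fibroblasts (3 libraries). Heterokaryons were D3 mouse embryonic stem cells fused to MRC5 human fibroblasts, a line from lung, and were sorted by flow cytometry. They are transient cells that keep mouse and human nuclei apart and give rise to no line. The homokaryon sample was human fibroblasts fused to each other, the co-cultures were D3 and MRC5 cells that were not fused and whose RNA was harvested together, and the unfused fibroblasts were human fibroblasts with no partner. No group carried a genetic change or drug that the labels name. The labels do not say whether libraries of a group came from separate fusions or cultures, so a p-value here measures only the spread between these libraries, which may be technical.

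Replication starts at origins that the origin recognition complex marks and where CDC6 helps to load the MCM helicase before S phase. CDC7 kinase and CDC45 turn the loaded helicase on, RPA coats the single strands, primase and the DNA polymerases copy them, the RFC loader places the PCNA clamp, and FEN1 and LIG1 finish the lagging strand. Thymidine kinase, thymidylate synthase, ribonucleotide reductase and dUTPase feed and clean the pool of DNA precursors, and many of these genes are E2F targets that are transcribed as cells pass from G1 into S phase. Cultured fibroblasts express them while they divide and lower them when they stop, whereas embryonic stem cells cycle fast and express them at high levels.

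Levels are the deposited values per transcript, in a unit of the RPKM form (reads scaled by transcript length and by library size), summed over the human coding transcripts of a gene. Read totals are not in the tables, so the depth behind each value is unknown. Each table used stops at its own place in accession order, and a transcript past that end was not covered. No table lists a value of 0; an unlisted transcript before the end was set to 0. Of the 37 genes, 25 were covered in full in at least 1 library, 8 in part only (MCM4, MCM7, PCNA, RFC2, RFC3, RFC4, RFC5 and RRM2), and 4 in none (POLA1, RRM1, TYMS and CDC6). Full coverage reached 16 genes in every library but unfused fibroblast replicate 1, and 3 genes (PRIM1, PRIM2 and LIG1) in all 11 libraries that hold human transcripts. The table of unfused fibroblast replicate 3 lists no human transcript and was not used. Unfused fibroblast replicate 1, which was used, lists 5336 human transcripts and 12191 not matched to human ones. The other libraries used list 209 to 321 of the latter. The source of these was not tested, and fibroblast markers were not checked in replicate 1.

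The fibroblast label was checked with 9 covered markers of 11. COL1A1 lay between 1576 and 5487 RPKM and VIM between 1429 and 3319 RPKM over the heterokaryon, homokaryon, co-culture and replicate 2 fibroblast libraries, while LUM was at or below 2.58 RPKM in all of them. The 9 markers summed to 7188 and 7751 RPKM on day 1, 4712 and 5261 RPKM on day 2, and 6686 and 6886 RPKM on day 3. The same sum was 15980 RPKM in the homokaryon sample, 6925 and 7005 RPKM in co-culture and 7651 RPKM in unfused fibroblast replicate 2. COL1A1, COL1A2 and VIM make up most of it, and single markers differed. DCN was at 69.5 and 22.7 RPKM on day 1, 9.20 and 17.9 RPKM on day 2 and 0 in both day 3 libraries. It was at 52.8 and 48.4 RPKM in co-culture and 69.2 RPKM in unfused fibroblast replicate 2. COL6A1 went the other way, at 377 to 1060 RPKM in heterokaryons and 293 RPKM in that fibroblast library. Of 9 pluripotent stem cell markers only POU5F1 and UTF1 were covered. Their human sum was 26.9 and 27.4 RPKM on day 1, 56.9 and 48.6 RPKM on day 2, and 27.3 and 18.9 RPKM on day 3. It was 0.928 RPKM in the homokaryon sample, 0 and 0.0847 RPKM in co-culture and 0.543 RPKM in unfused fibroblast replicate 2. UTF1 was at 0 in every one of these libraries but day 3 replicate 2. Heterokaryon and co-culture libraries both hold mouse RNA, and how far mouse reads fell on human transcripts was not tested. In bulk RNA, fewer cells of a type and less RNA per cell cannot be told apart.

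On day 1, heterokaryons had higher human levels of the helicase subunit MCM2, the helicase activator CDC45, the single-strand binding subunit RPA1, the flap nuclease FEN1, the DNA ligase LIG1 and thymidine kinase TK1 than co-cultures. These 6 of the 20 replication genes tested rose and none fell (30.0% called), against 393 of all 3550 genes tested (11.1% called in either direction, 6.42% called higher). The median log2 fold change of the 20 genes was 1.27, against 0.00 for all genes tested. Both day 1 libraries lay above both co-culture libraries for 14 of the 20 genes, against 28.2% of all genes tested, and for no replication gene did both lie below, against 26.1%. A gene is called here at a limma adjusted p under 0.05 (Benjamini-Hochberg over all genes tested), and fold changes are on the scale of log2(RPKM + 1), which understates changes of low genes.

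**Figure D1:**
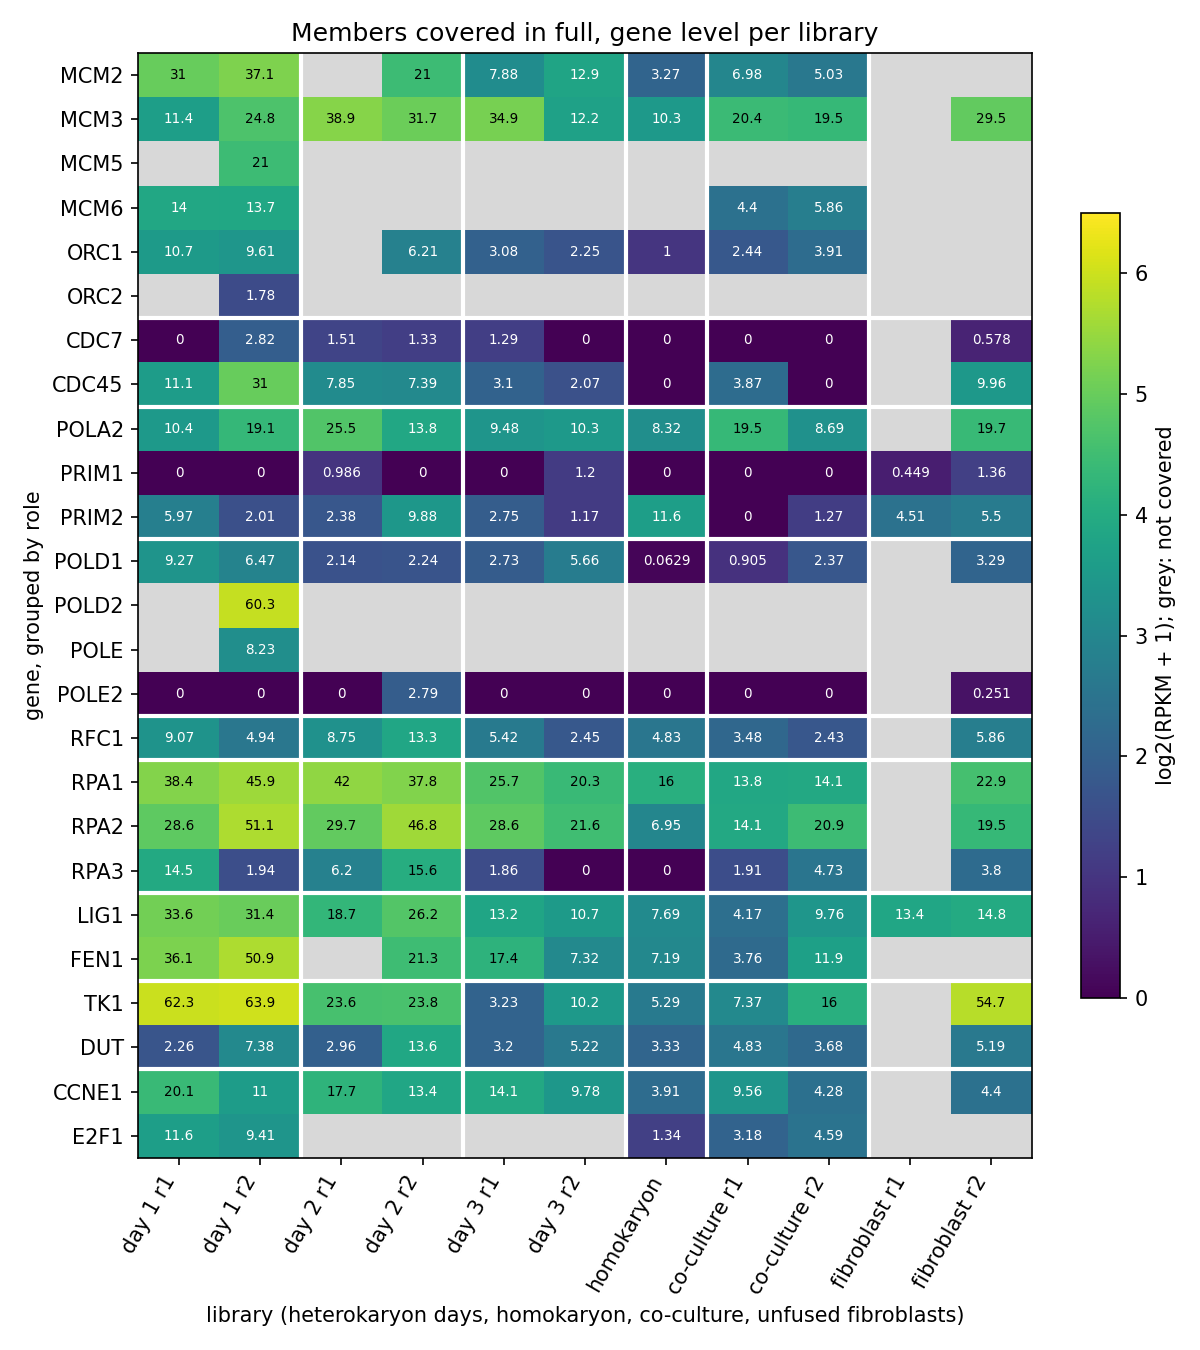
Gene level in each library (columns) of the 25 replication genes covered in full in at least 1 library (rows, grouped by role), coloured by log2(RPKM + 1) with the RPKM printed in the cell; grey cells are not covered. MCM2, CDC45, RPA1, FEN1, LIG1 and TK1 are brighter in both day 1 columns than in both co-culture columns, and MCM3 is not.

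Among the genes that mark origins and load the helicase, MCM2 rose on day 1. MCM2 (NM_004526), a subunit of the MCM ring, was at 31.0 and 37.1 RPKM on day 1, 21.0 RPKM in the 1 day 2 library that covers it, and 7.88 and 12.9 RPKM on day 3. MCM2 was at 3.27 RPKM in the homokaryon sample, and 6.98 and 5.03 RPKM in co-culture. Both day 1 libraries were above all the others, and the day 3 libraries were both above co-culture with a narrow gap. The means were 34.0 ± 4.38 RPKM on day 1 and 6.01 ± 1.38 RPKM in co-culture (SD, n = 2 each). MCM2 rose with a log2 fold change of 2.33 ± 0.43 (SE, adjusted p = 0.0199). This call held without day 1 replicate 1 (adjusted p = 0.0469) and was lost without day 1 replicate 2 (0.0535), co-culture replicate 1 (0.104) or co-culture replicate 2 (0.142). On day 3 the log2 fold change against co-culture was 0.68 ± 0.43 (adjusted p = 0.482), and MCM2 did not pass.

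The other helicase subunits were covered unevenly. MCM6 was at 14.0 and 13.7 RPKM on day 1 and 4.40 and 5.86 RPKM in co-culture, with no overlap, and did not pass (log2 fold change 1.29 ± 0.48, adjusted p = 0.151). MCM3 was the exception, at 11.4 and 24.8 RPKM on day 1, 38.9 and 31.7 RPKM on day 2, and 34.9 and 12.2 RPKM on day 3. MCM3 was at 10.3 RPKM in the homokaryon sample, 20.4 and 19.5 RPKM in co-culture and 29.5 RPKM in unfused fibroblast replicate 2. Its day 1 libraries lay on either side of co-culture (log2 fold change -0.23 ± 0.54, adjusted p = 0.838). For MCM7, 1 of 2 transcripts was covered, at 66.6 and 50.4 RPKM on day 1 and 6.36 and 9.17 RPKM in co-culture. In a fit on covered transcripts only, in which 378 of 6304 genes were called (6.0% called), that MCM7 transcript rose with a log2 fold change of 2.77 ± 0.40 (adjusted p = 0.0281). Leaving out a library was not run for that fit. The covered transcript of MCM4, 1 of 2, stood at 14.4 and 11.7 RPKM on day 1 and 5.48 and 2.72 RPKM in co-culture and did not pass in that fit (adjusted p = 0.192). MCM5 was covered in day 1 replicate 2 alone, at 21.0 RPKM.

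ORC1, the largest subunit of the origin recognition complex, was at 10.7 and 9.61 RPKM on day 1, 6.21 RPKM in the 1 covered day 2 library, and 3.08 and 2.25 RPKM on day 3. ORC1 was at 1.001 RPKM in the homokaryon sample and 2.44 and 3.91 RPKM in co-culture. Day 1 lay apart from co-culture and day 3 overlapped it, and neither difference passed (adjusted p = 0.129 on day 1 and 0.911 on day 3). ORC2 was covered in day 1 replicate 2 alone, at 1.78 RPKM.

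CDC45 (3 transcripts), which joins the MCM ring into the working helicase, was at 11.1 and 31.0 RPKM on day 1, 7.85 and 7.39 RPKM on day 2, and 3.10 and 2.07 RPKM on day 3. CDC45 was at 0 RPKM in the homokaryon sample, 3.87 and 0 RPKM in co-culture and 9.96 RPKM in unfused fibroblast replicate 2. Its lowest day 1 library was above every other library, and the day 3 libraries fell between the 2 co-culture libraries. CDC45 rose on day 1 with a log2 fold change of 3.16 ± 0.82 (adjusted p = 0.0464), the widest SE among the 6 called genes. The call was lost with any 1 library left out, at adjusted p = 0.0531 without day 1 replicate 1, 0.140 without day 1 replicate 2, 0.0653 leaving out co-culture replicate 1 and 0.245 leaving out co-culture replicate 2, where no CDC45 transcript is listed and the level was set to 0. Its day 2 log2 fold change was 1.96 ± 0.81 (adjusted p = 0.174) and its day 3 value 0.68 ± 0.81 (adjusted p = 0.728). CDC7, the kinase that fires origins, stayed at or below 2.82 RPKM in all libraries that cover it and was set to 0, being unlisted, in both co-cultures, and it passed on no day.

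At the fork, RPA1 rose on day 1 and on day 2. RPA1 (NM_002945), the large subunit of the single-strand binding protein, was at 38.4 and 45.9 RPKM on day 1, 42.0 and 37.8 RPKM on day 2, and 25.7 and 20.3 RPKM on day 3. RPA1 was at 16.0 RPKM in the homokaryon sample, 13.8 and 14.1 RPKM in co-culture and 22.9 RPKM in unfused fibroblast replicate 2. Every heterokaryon library was above both co-cultures, and the day 1 and day 2 libraries were above the fibroblast library as well. The means were 42.1 ± 5.28 RPKM on day 1, 39.9 ± 2.98 RPKM on day 2, 23.0 ± 3.82 RPKM on day 3 and 14.0 ± 0.159 RPKM in co-culture (SD, n = 2 each). RPA1 had a log2 fold change of 1.52 ± 0.30 on day 1 (adjusted p = 0.0206), 1.45 ± 0.30 on day 2 (adjusted p = 0.0240) and 0.67 ± 0.31 on day 3, where it did not pass (adjusted p = 0.307). The day 1 call held without day 1 replicate 1 (adjusted p = 0.0368) and was lost without day 1 replicate 2 (0.0521), co-culture replicate 1 (0.140) or co-culture replicate 2 (0.136). The day 2 call was lost with any 1 library left out, at adjusted p = 0.135 without day 2 replicate 1, 0.123 without day 2 replicate 2, 0.135 leaving out co-culture replicate 1 and 0.141 leaving out co-culture replicate 2.

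RPA2, its middle subunit, was at 28.6 and 51.1 RPKM on day 1, 29.7 and 46.8 RPKM on day 2, and 28.6 and 21.6 RPKM on day 3. RPA2 was at 6.95 RPKM in the homokaryon sample and 14.1 and 20.9 RPKM in co-culture. It lay above both co-cultures in all 6 heterokaryon libraries and passed on no day (log2 fold change 1.11 ± 0.42 and adjusted p = 0.130 on day 1). RPA3, the small subunit, did not follow the other subunits, at 14.5 and 1.94 RPKM on day 1, 6.20 and 15.6 RPKM on day 2, and 1.86 and 0 RPKM on day 3. RPA3 was at 0 RPKM in the homokaryon sample and 1.91 and 4.73 RPKM in co-culture. Its day 1 libraries overlapped co-culture, both day 2 libraries were above it and both day 3 libraries below it, and no comparison of RPA3 passed.

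Primase and polymerase genes were mostly low. POLD1, the catalytic subunit of DNA polymerase delta, was at 9.27 and 6.47 RPKM on day 1, 2.14 and 2.24 RPKM on day 2, and 2.73 and 5.66 RPKM on day 3. POLD1 was at 0.0629 RPKM in the homokaryon sample and 0.905 and 2.37 RPKM in co-culture. Day 1 lay apart from co-culture with a log2 fold change of 1.79 ± 0.57 that did not pass (adjusted p = 0.0890). POLA2, the second subunit of polymerase alpha, overlapped co-culture on all 3 days (8.69 to 25.5 RPKM over these libraries). The primase subunit PRIM2 lay above both co-cultures on day 1 (5.97 and 2.01 RPKM) and day 2 (2.38 and 9.88 RPKM), against 0 and 1.27 RPKM in co-culture, and did not pass (adjusted p = 0.203 and 0.124). PRIM1 and POLE2 were at 0 in most libraries, POLE2 failed the low-value filter, and POLE (8.23 RPKM) and POLD2 (60.3 RPKM) were covered in full only in day 1 replicate 2. The 2 POLD2 transcripts of 3 that more libraries cover summed to 53.8 and 60.3 RPKM on day 1, 15.6 and 1.26 RPKM on day 2, and 23.8 and 0 RPKM on day 3. Their sum was 1.10 and 58.3 RPKM in co-culture and 41.6 RPKM in unfused fibroblast replicate 2. In a limma fit on covered transcripts POLD2 did not pass on day 1 (log2 fold change 2.38 ± 1.95, adjusted p = 0.530).

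The clamp PCNA was covered for 1 of its 2 transcripts (NM_002592). That transcript was at 75.2 and 75.4 RPKM on day 1, 138 and 68.9 RPKM on day 2, and 42.1 and 0 RPKM on day 3. The PCNA transcript was at 13.1 RPKM in the homokaryon sample, 13.4 and 10.05 RPKM in co-culture and 43.1 RPKM in unfused fibroblast replicate 2. All 4 libraries of days 1 and 2 were above every other library, and the 2 day 3 libraries lay on either side of co-culture. The 0 in day 3 replicate 2 is part of the spread that the model estimates. In the fits on covered transcripts PCNA passed on no day, with log2 fold changes of 2.60 ± 1.49 on day 1 (adjusted p = 0.369), 2.97 ± 1.51 on day 2 (adjusted p = 0.340) and -0.94 ± 1.49 on day 3 (adjusted p = 0.848). The second PCNA transcript was past the end of every table, so how reads were divided between the 2 transcripts was not tested. Of the clamp loader genes, RFC1 was at 9.07 and 4.94 RPKM on day 1, 8.75 and 13.3 RPKM on day 2, 5.42 and 2.45 RPKM on day 3 and 3.48 and 2.43 RPKM in co-culture, and passed on no day (smallest adjusted p = 0.111, on day 2). The covered transcripts of RFC2, RFC3, RFC4 and RFC5 were at or below 16.2 RPKM each, and none of these genes was called against co-culture.

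Both genes for finishing the lagging strand rose on day 1. LIG1 (NM_000234), which seals the nicks, was at 33.6 and 31.4 RPKM on day 1, 18.7 and 26.2 RPKM on day 2, and 13.2 and 10.7 RPKM on day 3. LIG1 was at 7.69 RPKM in the homokaryon sample, 4.17 and 9.76 RPKM in co-culture and 13.4 and 14.8 RPKM in unfused fibroblast replicates 1 and 2. Every heterokaryon library was above both co-cultures, and both day 3 libraries were below both fibroblast libraries. The means were 32.5 ± 1.52 RPKM on day 1, 22.4 ± 5.31 RPKM on day 2, 11.9 ± 1.70 RPKM on day 3 and 6.97 ± 3.95 RPKM in co-culture (SD, n = 2 each). LIG1 had a log2 fold change of 2.17 ± 0.43 on day 1 (adjusted p = 0.0174), 1.63 ± 0.42 on day 2 (adjusted p = 0.0419) and 0.79 ± 0.43 on day 3 (adjusted p = 0.390, not passed). The day 1 call was lost only without co-culture replicate 1 (adjusted p = 0.131), where LIG1 is lowest; without each of the other 3 libraries adjusted p was 0.0382 to 0.0485. The day 2 call was lost with any 1 library left out, at adjusted p = 0.113 without day 2 replicate 1, 0.232 without day 2 replicate 2, 0.232 leaving out co-culture replicate 1 and 0.0621 leaving out co-culture replicate 2.

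FEN1 (NM_004111), which cuts the flaps of Okazaki fragments, was at 36.1 and 50.9 RPKM on day 1, 21.3 RPKM in the 1 covered day 2 library, and 17.4 and 7.32 RPKM on day 3. FEN1 was at 7.19 RPKM in the homokaryon sample and 3.76 and 11.9 RPKM in co-culture. Day 1 lay well above all other libraries, and the day 3 libraries overlapped co-culture. FEN1 rose on day 1 with a log2 fold change of 2.48 ± 0.62 (adjusted p = 0.0477), and on day 3 the value was 0.66 ± 0.62 (adjusted p = 0.658). The day 1 call was lost with any 1 library left out, at adjusted p = 0.0947 without day 1 replicate 1, 0.132 without day 1 replicate 2, 0.232 leaving out co-culture replicate 1 and 0.0967 leaving out co-culture replicate 2.

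TK1 had the largest day 3 against day 1 difference of the 18 replication genes tested. TK1 (NM_003258), which phosphorylates salvaged thymidine, was at 62.3 and 63.9 RPKM on day 1, 23.6 and 23.8 RPKM on day 2, and 3.23 and 10.2 RPKM on day 3. TK1 was at 5.29 RPKM in the homokaryon sample, 7.37 and 16.0 RPKM in co-culture and 54.7 RPKM in unfused fibroblast replicate 2. The 3 days did not overlap each other, days 1 and 2 lay above co-culture, and day 3 overlapped it. TK1 rose on day 1 against co-culture with a log2 fold change of 2.43 ± 0.53 (adjusted p = 0.0278), and did not pass on day 2 (1.05 ± 0.53, adjusted p = 0.262) or day 3 (-0.80 ± 0.53, adjusted p = 0.503). The day 1 call was lost with any 1 library left out, at adjusted p = 0.0762 without day 1 replicate 1, 0.0723 without day 1 replicate 2, 0.180 leaving out co-culture replicate 1 and 0.0843 leaving out co-culture replicate 2.

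For RRM2, the small subunit of ribonucleotide reductase, 1 of 2 transcripts was covered. It was at 15.6 and 17.2 RPKM on day 1, 4.24 and 4.28 RPKM on day 2, and 2.10 and 0.492 RPKM on day 3. This transcript was at 0.984 RPKM in the homokaryon sample, 1.79 and 1.08 RPKM in co-culture and 13.2 RPKM in unfused fibroblast replicate 2. Of the 3 days, days 1 and 2 lay above both co-cultures and day 1 above the fibroblast library as well. In the fits on covered transcripts RRM2 rose on day 1 with a log2 fold change of 2.85 ± 0.56 (adjusted p = 0.0340), and day 2 did not pass (1.13 ± 0.55, adjusted p = 0.319). MCM2, RPA1, LIG1 and TK1 were also called in the day 1 fit, with MCM7 and RRM2 6 of 28 genes, while CDC45 (adjusted p = 0.0746) and FEN1 (adjusted p = 0.0784) were not. DUT, the dUTPase that keeps uracil out of DNA, overlapped co-culture on all 3 days, at 2.26 to 13.6 RPKM over the heterokaryon libraries, and passed on no day.

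**Figure D2:**
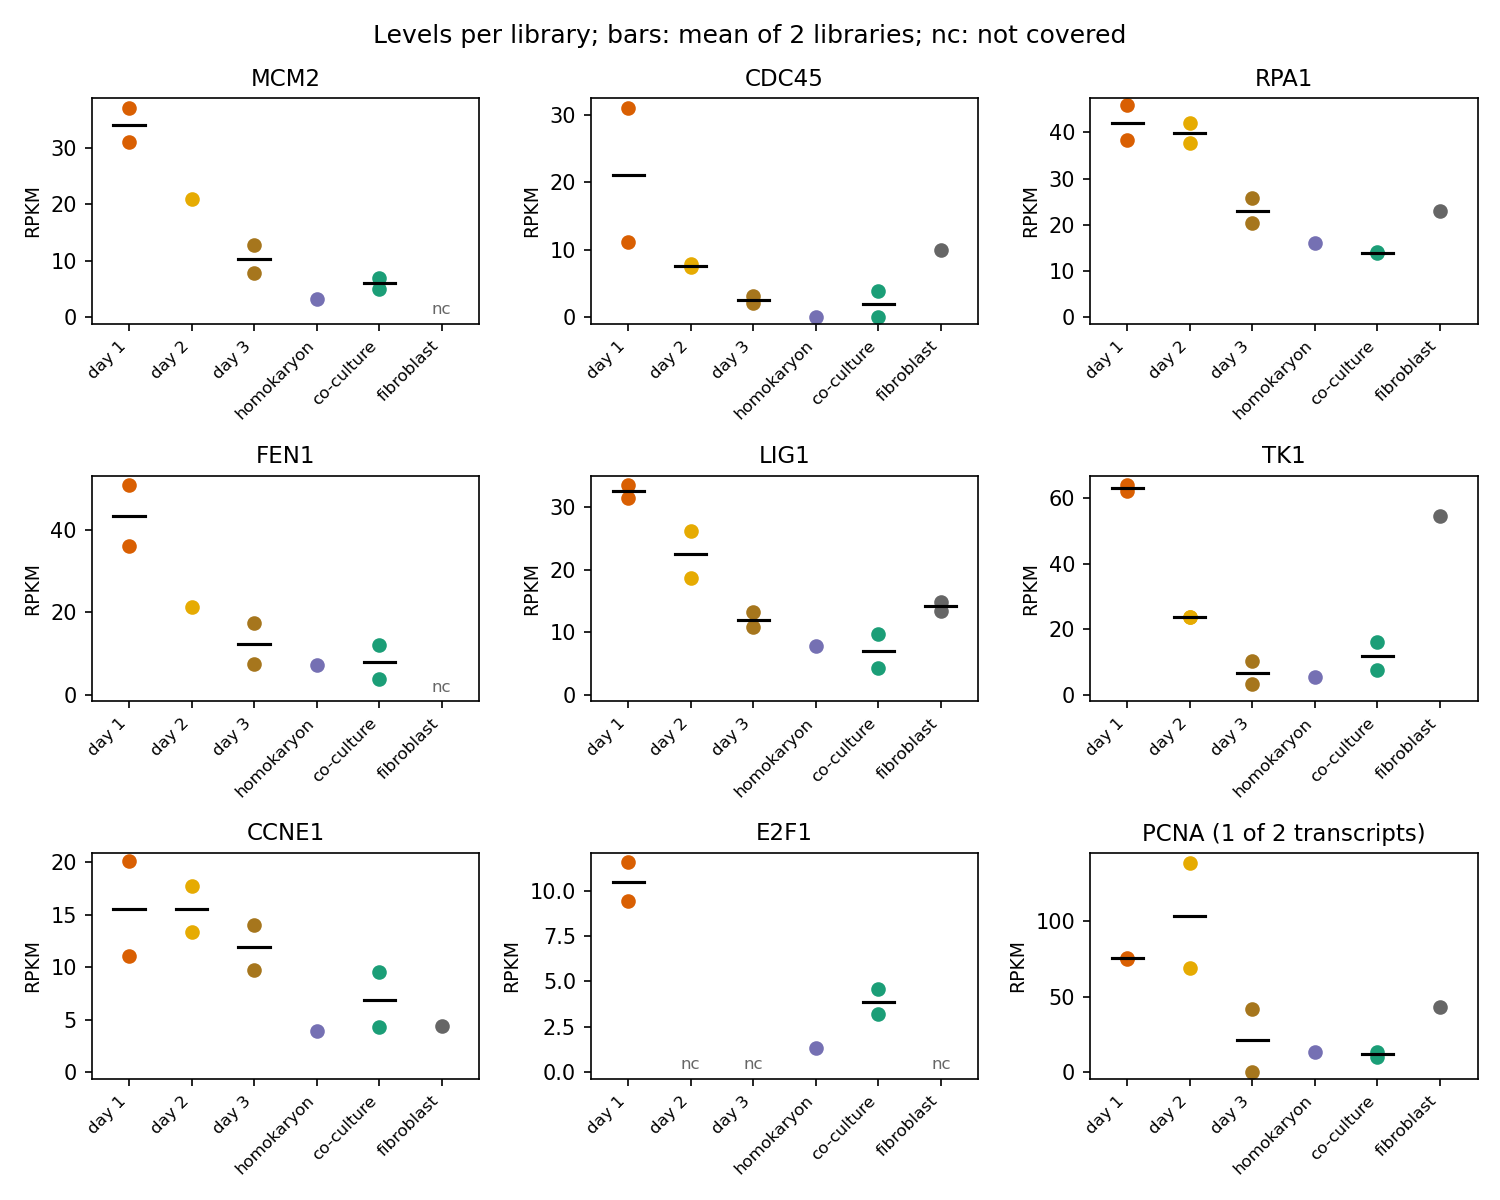
Level (RPKM, linear axis) in each library of the 6 genes called on day 1 and of CCNE1, E2F1 and the covered PCNA transcript, by group; points are libraries, bars the mean of 2 libraries, and nc marks groups with no covered library. TK1 is at 62.3 and 63.9 RPKM on day 1, 3.23 and 10.2 RPKM on day 3 and 7.37 and 16.0 RPKM in co-culture, and the 3 days of CCNE1 overlap.

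The 2 regulators of S phase entry did not pass. CCNE1 (NM_001238), the cyclin that drives CDK2 at the G1 to S step, was at 20.1 and 11.04 RPKM on day 1, 17.7 and 13.4 RPKM on day 2, and 14.1 and 9.78 RPKM on day 3. CCNE1 was at 3.91 RPKM in the homokaryon sample, 9.56 and 4.28 RPKM in co-culture and 4.40 RPKM in unfused fibroblast replicate 2. All 6 heterokaryon libraries were above both co-cultures, though the lowest of them (9.78 RPKM) was close to the higher co-culture (9.56 RPKM), and the 3 days overlapped. The means were 15.6 ± 6.40 RPKM on day 1, 15.6 ± 3.09 RPKM on day 2, 11.9 ± 3.02 RPKM on day 3 and 6.92 ± 3.74 RPKM in co-culture (SD, n = 2 each). The log2 fold changes were 1.09 ± 0.52 (adjusted p = 0.224), 1.14 ± 0.52 (adjusted p = 0.212) and 0.77 ± 0.52 (adjusted p = 0.508). E2F1 (NM_005225), a transcription factor for S phase genes, was covered only on day 1 (11.6 and 9.41 RPKM), in the homokaryon sample (1.34 RPKM) and in co-culture (3.18 and 4.59 RPKM). Its day 1 and co-culture libraries did not overlap, with a log2 fold change of 1.24 ± 0.53 (adjusted p = 0.196).

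On day 2, LIG1 and RPA1 were higher than in co-culture, and no replication gene was lower. These are 2 of 15 genes tested (13.3% called), against 261 of 2413 genes (10.8% called), so the share among the replication genes was near that of all genes. Their median log2 fold change was 1.14, against 0.29 for all genes tested, and 11 of the 15 lay above both co-cultures, against 39.4% of all genes tested. All genes were shifted upward on day 2, and the share of called genes that were higher was 63.6% as deposited, 45.4% with quantile normalization and 80.8% with upper quartile scaling. With quantile normalization the median of all genes was 0.03 and no replication gene was called on day 2.

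On day 3, no replication gene was called against co-culture in 18 tested with limma, whereas 107 of all 2982 genes were called (3.59% called). None of the 18 reached an unadjusted p under 0.05 in limma, which 547 of the 2982 genes did. The median log2 fold change was 0.58 for the 18 genes and 0.07 for all genes tested. CCNE1, LIG1, MCM2, POLD1, RPA1 and RPA2 lay above both co-cultures, against 26.4% of all genes, and RPA3 lay below both, against 20.7% of all genes. Between the nearest libraries of day 3 and co-culture the gap was narrow for CCNE1 (9.78 and 9.56 RPKM), POLD1 (2.73 and 2.37 RPKM) and RPA3 (1.86 and 1.91 RPKM). Among all called genes 65.4% were higher as deposited and 87.5% with upper quartile scaling, which puts the median of all genes at 0.38.

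**Figure D3:**
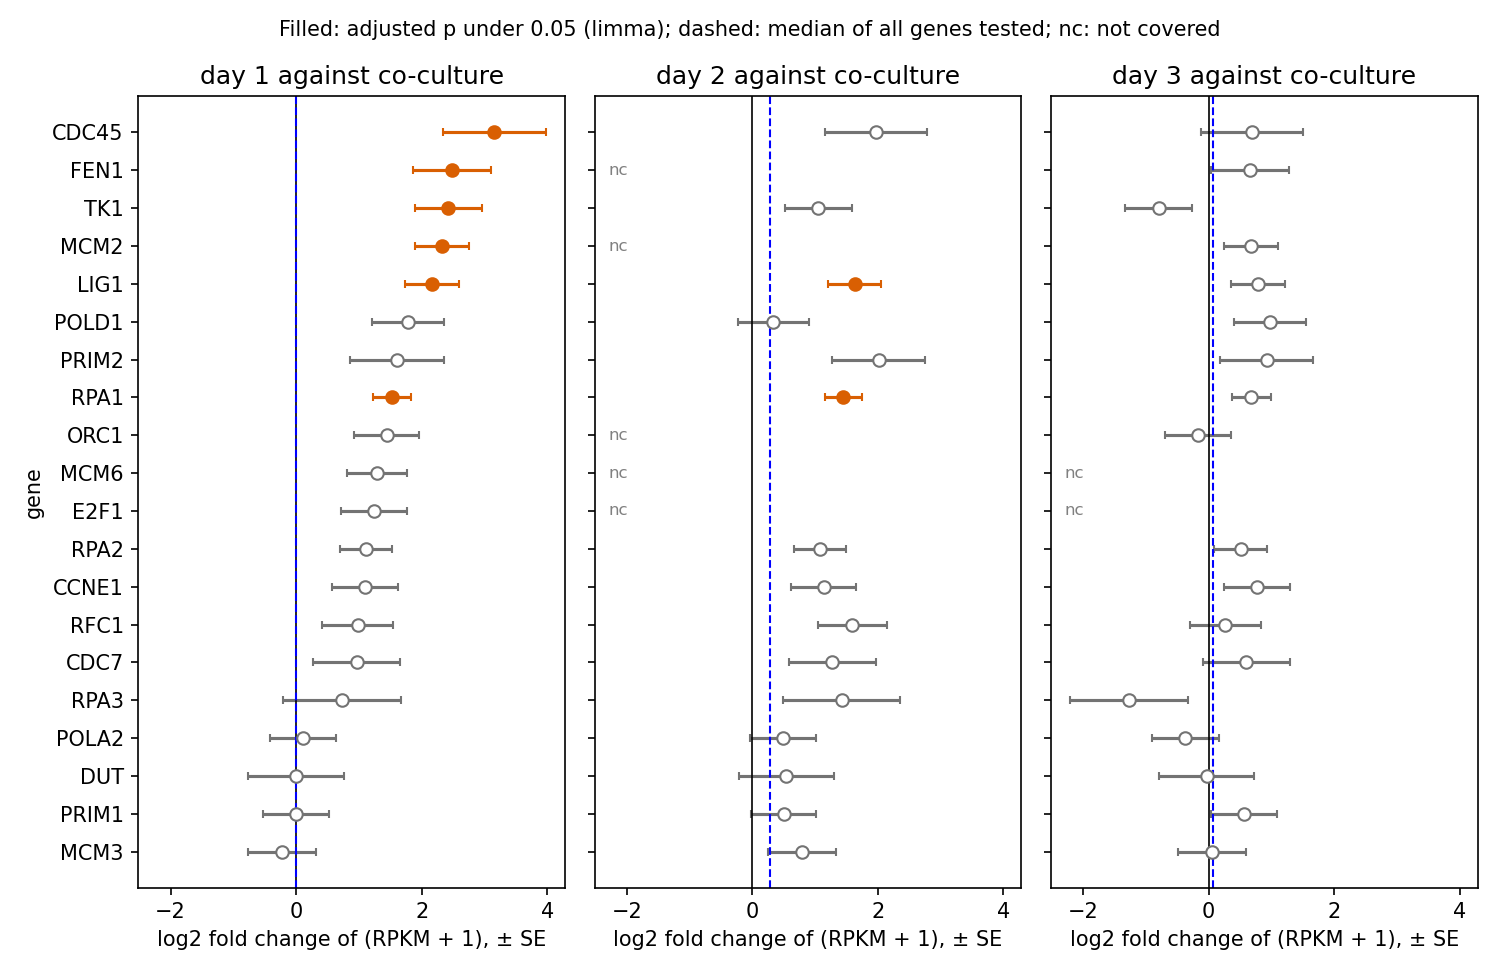
Log2 fold change of (RPKM + 1) against co-culture on day 1, day 2 and day 3 (x axis, ± SE from limma) of the 20 replication genes tested on day 1 (rows); filled points have an adjusted p under 0.05, the dashed line is the median of all genes tested and nc marks genes not covered. Filled points number 6 on day 1, 2 on day 2 and 0 on day 3.

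The 3 comparisons with co-culture share the co-culture libraries, so the days were also compared with each other. Day 3 against day 1, TK1 fell by 3.22 on the log2 scale (SE 0.53, adjusted p = 0.0457), at 6.69 ± 4.90 RPKM on day 3 and 63.1 ± 1.17 RPKM on day 1 (SD, n = 2 each). TK1 was the 1 gene called of 18 replication genes tested (5.56% called), against 37 of 2982 genes (1.24% called). This call held without day 3 replicate 2 (adjusted p = 0.0306) and was lost without day 1 replicate 1 (0.0993), day 1 replicate 2 (0.0826) or day 3 replicate 1 (0.0733). Of the 18 genes, 10 had both day 3 libraries below both day 1 libraries (CDC45, FEN1, LIG1, MCM2, ORC1, POLA2, POLD1, RPA1, RPA3 and TK1), against 19.6% of all genes. None lay above, against 21.1% of all genes. Their median log2 fold change was -0.76, against 0.01 for all genes tested, and 7 of 18 reached an unadjusted p under 0.05, which 551 of 2982 genes did. MCM2 (-1.65 ± 0.43, adjusted p = 0.103), CDC45 (-2.47 ± 0.81, 0.158), LIG1 (-1.38 ± 0.43, 0.135), FEN1 (-1.83 ± 0.62, 0.181) and RPA1 (-0.85 ± 0.31, 0.198) did not pass.

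Between neighbouring days no replication gene was called. Day 2 against day 1, limma called none of 15 replication genes, 2 of which reached an unadjusted p under 0.05, as did 456 of 2413 genes, and it called 8 of those 2413 (0.332% called). CDC45, LIG1, POLD1 and TK1 had both day 2 libraries below both day 1 libraries, against 17.7% of all genes, and MCM3 had both above, against 30.1% of all genes. Day 3 against day 2, limma called none of 15 replication genes and none of 2413 genes (0.0% called). An unadjusted p under 0.05 was reached by 4 replication genes and 195 of all genes. Both day 3 libraries lay below both day 2 libraries for 9 of the 15, against 23.1% of all genes. POLD1 alone had both above, and the share of all genes in that direction is not given here. The median log2 fold change of the 15 genes day 3 against day 2 was -0.78, against -0.16 for all genes tested. By mean level over the days, 7 of the 16 genes covered in full in all these libraries were highest on day 1, 8 on day 2 and 1 on day 3. The same count was not made for all genes, whose median log2 fold change day 2 against day 1 was 0.23. The 8 genes include POLE2, which failed the low-value filter, and CDC7, with means of 1.41 RPKM on day 1 and 1.42 RPKM on day 2.

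Set against unfused fibroblasts, 3 replication genes were covered by both fibroblast libraries (LIG1, PRIM1 and PRIM2). None passed in any comparison, where 16.0% of genes were called on day 1, 12.8% on day 2, 7.25% on day 3 and 0.84% for co-culture. LIG1 lay above both fibroblast libraries on day 1 and day 2, as did 29.5% and 45.1% of all genes, and its day 1 log2 fold change was 1.15 ± 0.40 (adjusted p = 0.0856). PRIM1 lay below both fibroblast libraries on day 1, against 30.1% of all genes, and LIG1 and PRIM2 did so on day 3, against 25.3%. LIG1, PRIM1 and PRIM2 lay below both fibroblast libraries in both co-cultures, against 26.4% of all genes, with log2 fold changes of -1.02, -0.89 and -1.99 that did not pass (adjusted p = 0.343, 0.603 and 0.328). PRIM1 is near the floor: it was unlisted and set to 0 in both day 1 and both co-culture libraries. In unfused fibroblast replicates 1 and 2 it was at 0.449 and 1.36 RPKM. At an unadjusted p under 0.05, there were 1 of the 3 genes on day 1, 0 on day 2, 0 on day 3 and 2 for co-culture, and 277, 246, 219 and 112 of all 952 genes tested. In a fit against replicate 2 alone, added after seeing the data, 15 genes could be tested, with the lone fibroblast library assumed to vary like the other groups. With 1 fibroblast library that fit is read for effect sizes only, and no count of calls is drawn from it. TK1 on day 3, for example, had a log2 fold change of -3.02 that did not pass.

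Levels relative to unfused fibroblast replicate 2, with no test, put the co-cultures low. Of 15 replication genes, 10 and 9 were above that library on day 1, 9 and 10 on day 2, 5 and 4 on day 3, 1 in the homokaryon sample, and 1 and 2 in co-culture. Of 2439 genes, 49.8% and 47.3% were above it on day 1, 59.3% and 58.3% on day 2, 52.8% and 50.2% on day 3, 44.0% in the homokaryon sample, and 45.6% and 45.8% in co-culture. In day 2 replicate 1 the 9 of 15 genes above were near the share of all genes. The median log2 difference was 0.18 and 0.44 on day 1, 0.36 and 0.70 on day 2, -0.20 and -0.66 on day 3, -1.15 in the homokaryon sample and -0.69 and -0.66 in co-culture. Over the 2439 genes the same medians were 0.26 in both day 2 libraries and at or below 0.07 in the others. TK1, for example, was at 7.37 and 16.0 RPKM in co-culture and 54.7 RPKM in that fibroblast library.

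**Figure D4:**
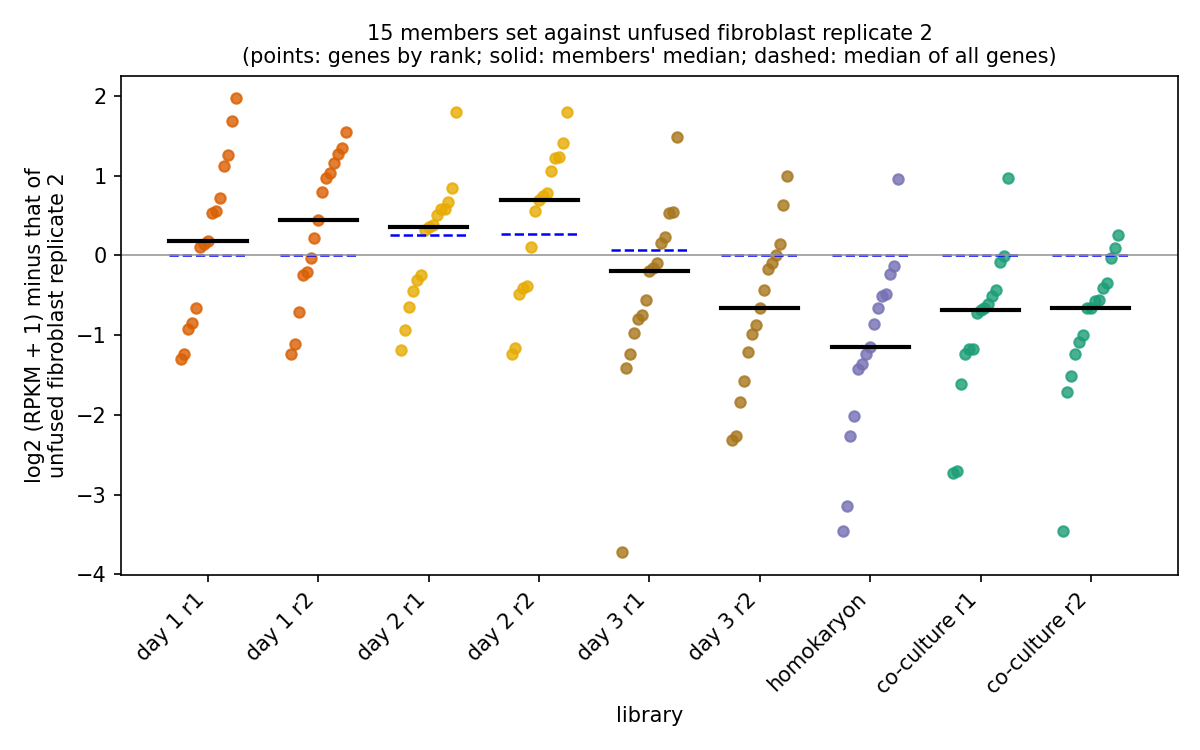
Log2(RPKM + 1) of 15 replication genes in each library minus that in unfused fibroblast replicate 2 (y axis), by library (x axis); points are genes in rank order, solid bars the median of the 15 and dashed bars the median of 2439 genes. The medians of the 15 are above 0 on days 1 and 2 and at or below -0.66 in the homokaryon and co-culture libraries.

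The homokaryon sample, 1 library with no replicate, was also low. Of 16 genes, 15 were below unfused fibroblast replicate 2 and PRIM2 was above it, where 44.0% of 2439 genes were above. PRIM2 was at 11.6 RPKM against 5.501 RPKM. TK1 was at 5.29 RPKM in the homokaryon sample and 54.7 RPKM in that fibroblast library, a ratio of 0.0967, and CDC45 was unlisted there and set to 0. The median log2 difference of the 16 genes was -1.01. The fibroblast marker sum was 15980 RPKM in the homokaryon sample and 7651 RPKM in that fibroblast library; RPKM values share a total, and the part of this in the low replication genes was not tested.

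A wider list of 74 other genes of origin licensing, fork protection, chromatin assembly, nucleotide synthesis and G1 to S control was counted in the same fits. Day 1 against co-culture, 2 of 23 tested rose and none fell, where 11.1% of all genes were called and 6.42% called higher, so the count was near that of all genes. The median log2 fold change of the 23 was 0.52, against 0.00 for all genes tested. TOP2A, the topoisomerase that untangles replicated DNA, was at 44.1 and 30.8 RPKM on day 1 and 1.49 and 1.71 RPKM in co-culture (log2 fold change 3.87 ± 0.43, adjusted p = 0.00225, at most 0.0281 with any 1 library left out). TIMELESS, a fork protection protein, was at 20.1 and 25.5 RPKM on day 1 and 2.73 and 4.65 RPKM in co-culture (2.36 ± 0.44, adjusted p = 0.0212). The TIMELESS call held with 1 of 4 libraries left out and reached adjusted p = 0.151 without co-culture replicate 1. On day 2 TOP2A alone of 14 rose (10.8% of all genes called), at 11.8 and 15.5 RPKM (2.48 ± 0.42, adjusted p = 0.00819), a call lost with any 1 library left out (0.0544 to 0.0808), and on day 3 limma called none of 20 (1 at an unadjusted p under 0.05), against 3.59% of all genes. Day 3 against day 1, TOP2A fell by 3.23 on the log2 scale (SE 0.43, adjusted p = 0.0341), at 2.80 and 3.27 RPKM on day 3; without day 1 replicate 1 adjusted p was 0.0556. TOP2A was lower in co-culture (1.60 ± 0.162 RPKM) than in unfused fibroblasts (9.85 ± 1.85 RPKM, SD, n = 2 each) with a log2 fold change of -2.05 ± 0.36 (adjusted p = 0.0478), a call lost with any 1 library left out (0.231 to 0.506). TOP2A was the 1 gene called of 20 for day 3 against day 1, where 1.24% of all genes were called. Against unfused fibroblasts 8 of the wider list were tested. Called were 2 on day 1 and 1 each on day 2, on day 3 and in co-culture. Of all genes 16.0%, 12.8%, 7.25% and 0.84% were called. On day 1 TOP2A was higher as well (log2 fold change 1.81 ± 0.36, limma adjusted p = 0.0149). That call held with 2 of 4 libraries left out in turn. Unfused fibroblast replicate 2 was among those without which it was lost. IMPDH2, the rate-limiting enzyme of guanine nucleotide synthesis, was higher than in unfused fibroblasts on all 3 days (adjusted p = 0.0158, 0.0224 and 0.0406 on days 1, 2 and 3). It was at 210 and 283 RPKM on day 1 and 115 and 110 RPKM in unfused fibroblast replicates 1 and 2. The upper quartile factors, by which levels are divided, were 1.31 and 1.38 on day 1. They were 0.847 and 1.17 on day 2, and 0.941 and 0.905 on day 3. In unfused fibroblast replicates 1 and 2 they were 0.621 and 0.692. In co-culture they were 1.25 and 1.22. That scaling would narrow the day 1 differences of TOP2A and LIG1 from unfused fibroblasts. It would also narrow the IMPDH2 differences, which are given here as deposited only. Without unfused fibroblast replicate 2 adjusted p was 0.145, 0.189 and 0.283. These calls held with 1, 1 and 0 of 4 libraries left out in turn.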

How the data were processed

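PolyA RNA-seq was analysed from the deposited tables of 11 of 12 libraries. The values the authors deposited are taken to be RPKM per RefSeq transcript; no header names the unit, so this is inferred, and RPKM, FPKM and TPM cannot be told apart. Per the submitters' processing notes the genome builds were hg19 and mm10. Aligner and counter names were not given in the sources used here. Each of the 11 tables used holds 10000 distinct values, lists no 0 and stops at its own accession. A transcript missing before that point was set to 0, and one past it was not covered. Of 149 accessions of 6 digits that open a listed accession of 9 digits, 148 are listed in no table, against 19 of 133 others in their number range, so they were also treated as not covered (RRM1, TYMS, CDC6 and 1 RRM2 transcript). This rule was chosen after seeing the data.

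Coding transcripts were summed per gene, with 118 accessions named through an older annotation table, 219 left unnamed and 244 genes near an unnamed accession set aside (none of them among the 37 genes). Genes at 1 or more in at least 2 libraries were fitted with limma 3.58.1 on log2(RPKM + 1) (R 4.3.3, lmFit and eBayes with trend). Each comparison had its own fit of the 10 libraries in 5 groups. A library that did not cover a gene gave no value for it, so the spread of most replication genes rests on fewer than 10 libraries. PRIM1, PRIM2 and LIG1 had values in all 10, and MCM6 in 4. A gene entered a comparison where both groups covered all its transcripts, and calls were made at an adjusted p under 0.05 (Benjamini-Hochberg, all genes tested). The design named all samples of the replicated groups; unfused fibroblast replicate 3 could not enter. The homokaryon sample entered no test. The script was tested on simulated data.

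The members and lists were chosen with earlier results of these data known. Genes described in full are those called on at least 1 heterokaryon day against co-culture, with E2F1, CCNE1 and PCNA whatever their call. Alternatives were a pseudocount of 0.1, no filter, a filter at 5, upper quartile scaling, quantile normalization, the highest single transcript, covered transcripts only, a fit of the 2 groups, a replicate block and each library left out. Promoter motifs and genome positions were not analysed here.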

Additional observations from a re-analysis of the deposited data

Results flagged for a closer look

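TK1 differed between heterokaryon days in the test of that difference itself: day 3 against day 1 the log2 difference was -3.22 (limma adjusted p = 0.0457), with both day 3 libraries below both day 1 libraries.

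RPA3 had both day 2 libraries above both co-cultures, against 39.4% of all genes. Both its day 3 libraries were below both co-cultures, against 20.7% of all genes. The means were 10.9 RPKM on day 2, 0.931 RPKM on day 3 and 3.32 RPKM in co-culture. The day 3 gap was narrow, at 1.86 RPKM in day 3 replicate 1 and 1.91 RPKM in co-culture replicate 1. RPA3 is unlisted in day 3 replicate 2 and was set to 0 there. Day 3 against day 2, the test of that difference, RPA3 did not pass (log2 fold change -2.69 ± 0.94, adjusted p = 0.519).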

How the results depend on the processing

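Day 1 against co-culture, the 6 calls became 3 with no filter on low values, 2 in a fit of the 2 groups and 0 to 3 with 1 library left out. Day 2 against co-culture, the 2 calls became 1 with no filter, 0 with quantile normalization, 0 on covered transcripts only, 0 with day 2 replicate 2 alone (added after seeing the data) and 0 to 0 with 1 library left out. Day 3 against day 1, the 1 call became 0 with a pseudocount of 0.1, no filter, quantile normalization, covered transcripts only or a fit of the 2 groups, and 0 to 1 with 1 library left out. Day 1 against unfused fibroblasts, the 0 calls became 1 in a fit of the 2 groups. In all these cases the cause was not tested. MCM2 on day 1 held in all 9 alternatives other than leaving out a library, and LIG1, RPA1 and TK1 on day 1 in 8 of 9 each, while CDC45 and FEN1 on day 1 held in 2 of 9 each. LIG1 and RPA1 on day 2 held in 4 and 7 of 10, and TK1 on day 3 against day 1 in 3 of 9. The homokaryon median log2 difference over 3 genes was -0.80, and -0.53 against unfused fibroblast replicate 1 alone. Log2 fold changes that turned were, on day 3 against co-culture, FEN1 (-0.0659 to 1.38 with 1 library left out, negative without co-culture replicate 1) and CDC45 (-0.459 to 1.83, negative without co-culture replicate 2), and, on day 3 against day 1, CCNE1 (0.18 with upper quartile scaling, and -0.73 to 0.0807 with 1 library left out, positive without day 1 replicate 1); none of these was called. Of the other settings of named genes, 290 kept direction and side of the threshold and 62 kept direction and lost the call.

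Replicate numbers do not pair the libraries: deviations of same-numbered libraries correlated between -0.117 and 0.0860 over 2376 genes. With the replicate block, day 1 against co-culture had 4 calls, day 2 had 1 and day 3 against day 1 had 0. Read totals are unknown, so no depth limit is given for values at 0.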
